A study of Homo sapiens with 3 samples.

Results

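The ubiquitin-conjugating (E2) enzymes of the UBE2 name family were described in 3 RNA-seq libraries labelled HepG2, an established human hepatoma line. The members were the gene rows on standard chromosomes whose name is UBE2 followed by 1 letter and an optional number, and 34 of 39320 gene rows qualified. All 3 libraries were made from polyA RNA of wild-type cells and are labelled as replicates 1 to 3, so the data hold 1 condition and no control. The labels do not say whether the replicates came from separate cultures, so the spread between them may be technical. Levels are given as TPM, a relative transcript abundance that allows for gene length and has a fixed sum per library, and the number of reads behind a value is unknown. Of 6 hepatocyte markers, 0 reached 1 TPM and 4 were at 0 throughout (the albumin, alpha-1-antitrypsin and apolipoprotein genes ALB, SERPINA1, APOB and APOA1), while KRT8 and KRT18 had 2609.6 and 2017 TPM on average. The hepatocyte markers do not bear out the label, and the identity of the cells was not tested. The values below therefore hold for the libraries labelled HepG2. As these are bulk samples, fewer cells of a type and less RNA per cell cannot be told apart.

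Ubiquitin is attached to proteins by a relay. An E1 enzyme activates it, an E2 enzyme carries it as a thioester on a cysteine, and an E3 ligase brings the loaded E2 to the substrate. The E2 often sets which kind of chain is built, so that Lys48-linked chains send a protein to the proteasome, Lys11-linked chains mark mitotic substrates of the anaphase-promoting complex (APC/C), and Lys63-linked chains act in signalling and DNA repair. A few members serve ubiquitin-like proteins instead, such as NEDD8 and ISG15.

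Of the 34 members, 31 had at least 1 TPM in every library, against 33.8% of all gene rows. At least 10 TPM in every library was reached by 29 members, against 20.7% of all rows and 40.4% of the 18743 rows of protein-coding genes. At least 50 TPM in every library was reached by 14 members, against 7.29% of all rows. The members' summed level was 2148, 2129 and 2126 TPM in replicates 1, 2 and 3, or 2135 ± 11.9 TPM (SD, n = 3). The median member had 34.0 TPM, while the 13753 rows that averaged 1 TPM or more had a median of 15.4 TPM. The family spanned from 281.7 TPM for UBE2S to 6.09 TPM for UBE2W, and UBE2L5, UBE2L6 and UBE2U were listed at 0 in all 3 libraries.

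**Figure D1:**
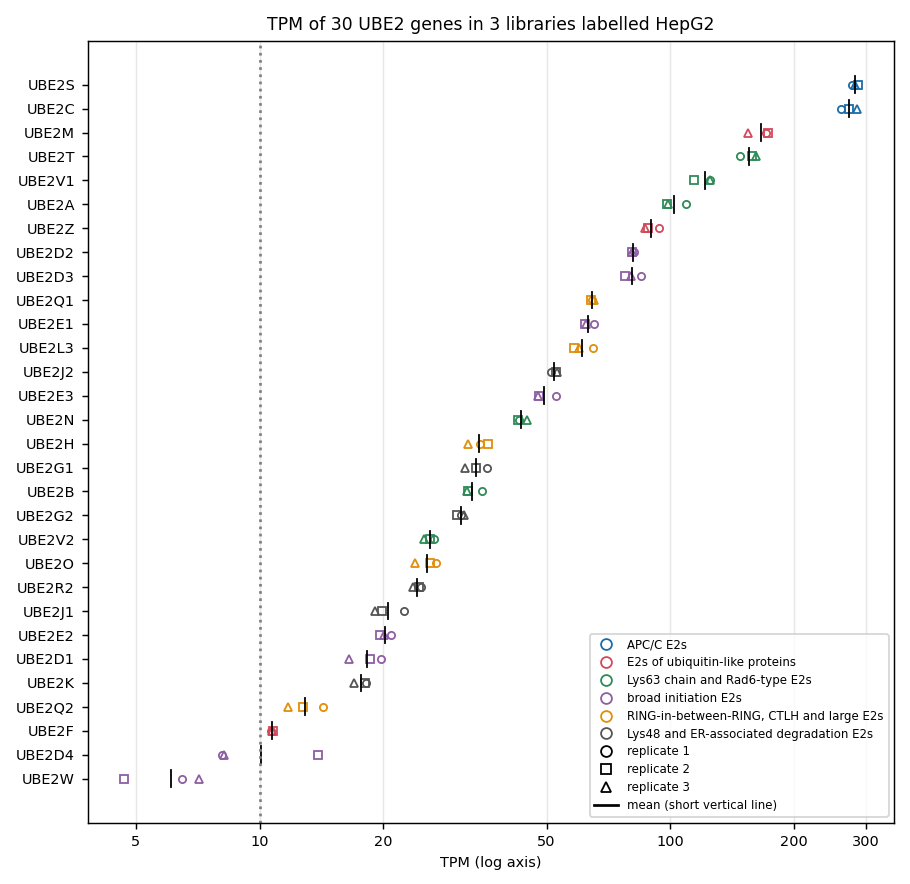
TPM on a log axis of 30 members above 0, with 1 symbol per replicate, colours for the role groups, a short line at the mean and a dotted line at 10 TPM. UBE2S and UBE2C stand apart at the top by TPM, and only UBE2D4 and UBE2W have libraries below 10 TPM.

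The highest levels by TPM belonged to the E2 pair of the APC/C, the ligase that drives cells through mitosis. UBE2S, which extends Lys11-linked chains, had 277.4, 286.1 and 281.7 TPM in replicates 1, 2 and 3. UBE2C, which starts the chains, had 260.5, 272.2 and 284.3 TPM. Their libraries overlapped, and the order of the pair was not the same in all of them, since UBE2C was the higher gene in replicate 3. Together they made up 26.0 ± 0.820% of the family's TPM (SD, n = 3). The lowest UBE2C library lay above the highest library of UBE2M, the next gene in the order by TPM. By coverage, the mean read depth over a gene, UBE2C was lower, at 837.1, 856.7 and 800.8 in replicates 1, 2 and 3, and both UBE2M (1070, 1061 and 851.1) and UBE2T (891.1, 936.8 and 854.8) exceeded it in every library. The step below the pair therefore held by TPM but not by coverage. On GRCh38, the UBE2S row spans positions 55399745 to 55408439 of chromosome 19 (minus strand), and the UBE2C row spans positions 45812576 to 45816957 of chromosome 20 (plus strand).

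Genes that work with this pair or rise with cell division ranged from levels near the pair to far lower ones. CDC20, which activates the APC/C in mitosis, had 271.5 ± 4.83 TPM, while FZR1, the activator used after mitosis, had 20.6 ± 0.871 TPM (SD, n = 3). The catalytic APC/C subunits ANAPC11 and ANAPC2 had 134.7 ± 8.24 and 75.6 ± 2.21 TPM (SD, n = 3). All 6 proliferation markers were above 10 TPM in every library, against 40.4% of the rows of protein-coding genes at that limit. Their means ran from 62.5 TPM for MKI67 to 265.1 TPM for CCNB1. The UBE2S row overlaps that of RPL28, a ribosomal protein gene on the plus strand with 329 ± 18.1 TPM (SD, n = 3), over 3598 bp. In the GENCODE v44 annotation their exons share 0 bp, but the annotation used for the tables is not named, and the part of RPL28 reads in the UBE2S value was not tested.

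UBE2T, the E2 that monoubiquitinates FANCD2 in the Fanconi anaemia repair pathway, followed UBE2M at 147.5, 158.3 and 161.4 TPM in replicates 1, 2 and 3. Its E3 partner FANCL was lower, with 21.6, 28.9 and 18.8 TPM. UBE2T overlapped UBE2M in range.

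The sequences before the start sites are shown for UBE2S and UBE2T, the highest members that act with mitotic or repair ligases and have an entry in the RefSeq table used (GRCh38.p14), and for UBE2L6, the ISG15 E2 listed at 0. Each sequence is the 250 bases before the RefSeq start, read 5′ to 3′ on the gene's own strand. Capitals mark matches on either strand to CCAAT, the box bound by NF-Y, and TTTGAA, the core of the cell cycle homology region of many mitotic genes. The core of the interferon-stimulated response element (ISRE), taken as GAAA, any 2 bases and GAAA again, was also searched on both strands, and it had no match in these windows. The matches shown do not overlap each other.
UBE2S (chr19:55407789-55408038, minus strand): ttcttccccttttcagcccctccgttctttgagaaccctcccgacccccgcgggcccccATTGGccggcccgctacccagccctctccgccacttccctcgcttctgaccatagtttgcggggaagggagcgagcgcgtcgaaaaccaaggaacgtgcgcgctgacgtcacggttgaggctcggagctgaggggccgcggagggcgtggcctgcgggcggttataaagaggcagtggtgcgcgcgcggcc
UBE2T (chr1:202341937-202342186, minus strand): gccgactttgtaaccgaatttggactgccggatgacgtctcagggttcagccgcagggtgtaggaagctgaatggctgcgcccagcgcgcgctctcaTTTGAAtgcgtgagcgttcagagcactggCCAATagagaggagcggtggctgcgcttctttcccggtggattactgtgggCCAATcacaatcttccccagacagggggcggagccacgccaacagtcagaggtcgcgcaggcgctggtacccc
UBE2L6 (chr11:57567936-57568185, minus strand): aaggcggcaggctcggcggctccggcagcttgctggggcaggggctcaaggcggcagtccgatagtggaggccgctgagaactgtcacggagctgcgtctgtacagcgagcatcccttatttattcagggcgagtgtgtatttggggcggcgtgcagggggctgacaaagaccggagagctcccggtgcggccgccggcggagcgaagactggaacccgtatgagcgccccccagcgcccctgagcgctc

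UBE2T held 2 matches to CCAAT and 1 to TTTGAA, UBE2S held 1 match to CCAAT, and UBE2L6 held none of the 3 motifs. The deposited row began 30 bp before the RefSeq start for UBE2T, 651 bp before it for UBE2S and 395 bp before it for UBE2L6, so these windows need not be the start used here. The table matched 26 members. Of the 24 that were above 0, 7 held CCAAT, or 29.2% against 32.0% of 35116 windows of the same length, and 2, UBE2T and UBE2F, held TTTGAA, or 8.33% against 13.3%. Both motifs stood together in 4.69% of all windows. UBE2U, listed at 0, also held both, with 3 matches to CCAAT and 1 to TTTGAA, but its row began 821 bp before the RefSeq start. UBE2T is among the highest members and UBE2F among the lowest above 0, so the presence of both motifs did not go with 1 level. What the windows shared was base composition: the members above 0 had a median of 28 CpG sites, with a lowest of 14 and a highest of 39, against a median of 11 over all windows. UBE2L6 had 24 CpG sites and UBE2U had 9. The 35116 windows were limited by neither expression nor gene type, so the difference in CpG sites is not shown to be particular to this family.

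The list of E2s of Lys63-linked chains and of the RAD6 type had 481.4 ± 8.95 summed TPM (SD, n = 3) over 6 genes. This sum includes the 155.7 TPM of UBE2T, described above by its role in FANCD2 monoubiquitination. It is therefore not the level of Lys63-linked and RAD6-type E2s alone. UBE2A and UBE2B are close relatives that ubiquitinate PCNA with RAD18 and histone H2B with RNF20 and RNF40. UBE2A, on the X chromosome, had 109.3, 97.9 and 98.7 TPM, and UBE2B, on chromosome 5, had 34.7, 32.2 and 32.0 TPM in replicates 1, 2 and 3. The libraries of the pair did not overlap, and the log2 ratio of TPM + 1 was 1.60 ± 0.03 (SD, n = 3). Their partners had 11.8 ± 0.912 TPM for RAD18, 63.2 ± 1.88 TPM for RNF20 and 81.7 ± 3.03 TPM for RNF40 (SD, n = 3).

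UBE2N builds Lys63-linked chains only together with UBE2V1 or UBE2V2, which have the E2 fold but lack the catalytic cysteine. UBE2N had 42.8, 42.7 and 44.8 TPM in replicates 1, 2 and 3. UBE2V1 had 125.1, 113.9 and 125.0 TPM, and UBE2V2 had 26.6, 26.0 and 25.1 TPM. By TPM, UBE2V1 lay above UBE2N and UBE2N above UBE2V2 in every library, with log2 ratios of -1.46 ± 0.07 for UBE2N to UBE2V1 and 0.72 ± 0.08 for UBE2N to UBE2V2 (SD, n = 3). By coverage the first order was turned, since UBE2N had a coverage of 217.2, 205.6 and 192.4 and UBE2V1 of 132.2, 121.9 and 115.7. By coverage the log2 ratio of UBE2N was 0.73 to UBE2V1 and 3.81 to UBE2V2. The order of UBE2N and UBE2V1 therefore depended on the scale.

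UBE2N also overlaps NUDT4, a gene on the opposite strand with 15.8 ± 0.412 TPM (SD, n = 3), over 2463 bp of their rows, and exons of both cover this region in GENCODE v44. How reads were divided between them was not tested. The ligases TRAF6 and RNF8, which use UBE2N, had 5.24 ± 0.237 and 17.0 ± 0.733 TPM (SD, n = 3).

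The E2s with broad use, which many RING ligases take to place the first ubiquitin, summed to 329.1 ± 9.14 TPM (SD, n = 3). UBE2D2 had 81.7, 80.9 and 80.5 TPM and UBE2D3 had 84.7, 77.6 and 80.3 TPM in replicates 1, 2 and 3. The 2 genes differed by less than the spread of the libraries, with a log2 ratio of 0.0042 ± 0.06 by TPM (SD, n = 3). By coverage UBE2D2 was the higher gene in 3 of 3 libraries, with a log2 ratio of 0.25. UBE2D1 was lower at 19.8, 18.5 and 16.5 TPM. Its log2 ratio to UBE2D3 was -2.09 ± 0.11 (SD, n = 3), and their libraries did not overlap.

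UBE2D4 was the member with the largest range between libraries, at 8.11, 13.9 and 8.20 TPM in replicates 1, 2 and 3. Replicate 2 stood apart by TPM, but the coverage of the same gene was 35.7, 36.6 and 31.5, so replicate 2 lay close to replicate 1 in read depth over the gene. With its coverage divided by FPKM and set relative to the top gene of the library, UBE2D4 was at 0.702, 0.429 and 0.698. The row overlaps that of POLR2J4, on the opposite strand with 3.04, 3.32 and 3.36 TPM, over 15242 bp. The part of the overlapping gene or of the assignment of reads to transcripts in the replicate 2 value was not tested.

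In the UBE2E group, which is related to UBE2D, UBE2E1 had 65.2, 61.9 and 62.5 TPM, UBE2E3 had 52.7, 47.9 and 47.6 TPM and UBE2E2 had 20.9, 19.6 and 20.0 TPM in replicates 1, 2 and 3. The 3 genes kept this order in every library without overlap. The log2 ratio of UBE2E1 to UBE2E3 was 0.35 ± 0.04 by TPM (SD, n = 3) and 3.03 by coverage. UBE2W, which attaches ubiquitin to the amino end of proteins, was the lowest member above 0, with 6.46, 4.69 and 7.11 TPM.

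**Figure D2:**
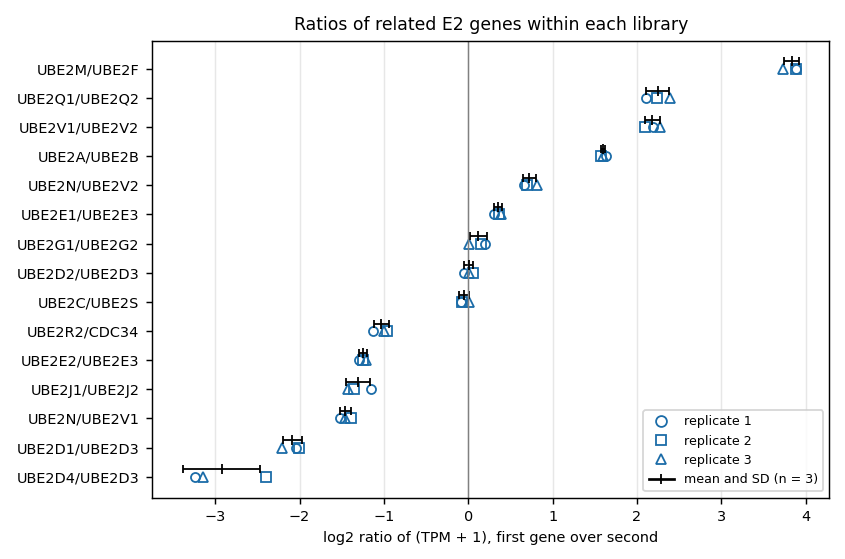
Log2 ratios of TPM + 1 between 15 pairs of related or partner genes within each library, with 1 symbol per replicate and the mean with SD (n = 3) above them. UBE2D2/UBE2D3 and UBE2C/UBE2S straddle 0, and UBE2M/UBE2F is the most unequal pair at 3.83.

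Ratios were taken within each library for 16 pairs of relatives or partners. In 14 pairs the direction was the same in 3 of 3 libraries, and flipping the signs of the ratios in every way (a two-sided exact permutation test) returned p = 0.25, or 0.286 after Benjamini-Hochberg adjustment over the pairs. With 3 libraries 0.25 is the smallest p this test allows, so no pair could pass a threshold of 0.05. The exceptions were UBE2D2 against UBE2D3 (exact p = 0.75) and UBE2C against UBE2S (exact p = 0.5), for which the ratio changed sign between libraries. By coverage UBE2C was below UBE2S in 3 of 3 libraries, with a log2 ratio of -0.53. The ratio of UBE2L6 to UBE2L3 is not given, because UBE2L6 was listed at 0. This pair is among the 14, and the 0 fixed its direction. How often unrelated gene pairs keep their direction was not computed, so the 14 are not read as a trait of related genes.

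The E2s that build Lys48-linked chains or act at the endoplasmic reticulum (ER) were lower, with 179.3 ± 3.72 summed TPM over 6 genes (SD, n = 3). UBE2J1 and UBE2J2 are anchored in the ER membrane, where misfolded proteins are handed to the proteasome. UBE2J2 had 51.1, 52.6 and 52.9 TPM and UBE2J1 had 22.5, 19.9 and 19.1 TPM in replicates 1, 2 and 3, without overlap. The log2 ratio of UBE2J1 to UBE2J2 was -1.31 ± 0.14 by TPM (SD, n = 3) and -0.63 by coverage. UBE2G2, which serves ligases of the ER membrane, had 30.98, 30.3 and 31.5 TPM, and its relative UBE2G1, which acts with cullin ligases, had 35.8, 33.7 and 31.7 TPM. UBE2G1 was the higher of the pair in every library, but the lowest log2 ratio was 0.01. SYVN1, a ligase of the ER membrane, had 22.8 ± 1.13 TPM (SD, n = 3).

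UBE2R2 and its relative CDC34, which the name rule leaves out, extend chains on substrates of cullin ligases. UBE2R2 had 24.7, 24.4 and 23.6 TPM and CDC34 had 55.4, 48.7 and 48.2 TPM in replicates 1, 2 and 3. CDC34 lay above UBE2R2 in every library, with a log2 ratio of UBE2R2 to CDC34 of -1.03 ± 0.09 (SD, n = 3). UBE2K, which makes Lys48-linked chains, had 18.1, 18.0 and 17.0 TPM.

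The E2s of ubiquitin-like proteins ranged from UBE2M, behind only UBE2S and UBE2C, to UBE2L6 at 0. NEDD8 is placed on cullins, which it activates, by UBE2M with RBX1 and by UBE2F with RNF7. UBE2M had 170.7, 172.9 and 154.8 TPM and UBE2F had 10.7, 10.8 and 10.7 TPM in replicates 1, 2 and 3. This was the widest gap among the compared pairs with both genes above 0. By mean TPM UBE2M was 15.5 times as high as UBE2F, with a log2 ratio of 3.83 ± 0.08 (SD, n = 3), or 5.50 by coverage. Their ligase partners were less far apart, with 72.9 ± 4.32 TPM for RBX1 and 45.9 ± 0.474 TPM for RNF7 (SD, n = 3). NEDD8 had 237.5 ± 17.5 TPM, and its E1 subunits NAE1 and UBA3 had 70.4 ± 1.68 and 36.1 ± 0.529 TPM (SD, n = 3).

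The relay of ISG15, a modifier induced by interferon, was uneven. ISG15 had 856.1, 819.7 and 770.4 TPM in replicates 1, 2 and 3, and its main ligase HERC5 had 27.3, 22.8 and 23.7 TPM. The E1 UBA7 had 0.668, 0.373 and 0.671 TPM, and UBE2L6, the E2 that carries ISG15, was listed at 0 in every library. The modifier and the ligase were therefore measured well above 10 TPM in libraries in which the E1 was below 1 TPM and the E2 had no value above 0. An exact 0 in tables without counts need not mean absent RNA. The UBE2L6 row spans positions 57551655 to 57568330 of chromosome 11 (minus strand). In the windows before the start sites, the ISRE core had 2 matches in ISG15 and 3 in HERC5, against 0 in UBE2L6, and 3.02% of all windows held it. The lack was not particular to UBE2L6, since 0 of the 24 matched members above 0 held it either. The deposited UBE2L6 row began 395 bp before the start used for its window, and no window is given for UBA7. A link between this motif and the levels was not tested.

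UBE2Z, which is charged by the alternative E1 UBA6 and can carry ubiquitin or FAT10, had 93.8, 88.2 and 86.8 TPM. UBA6 had 14.8, 10.3 and 11.1 TPM in replicates 1, 2 and 3, and UBD, the gene of FAT10, had 0.211, 0 and 0.0989 TPM. UBE2Z exceeded its E1 in every library, and UBD was near 0.

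**Figure D3:**
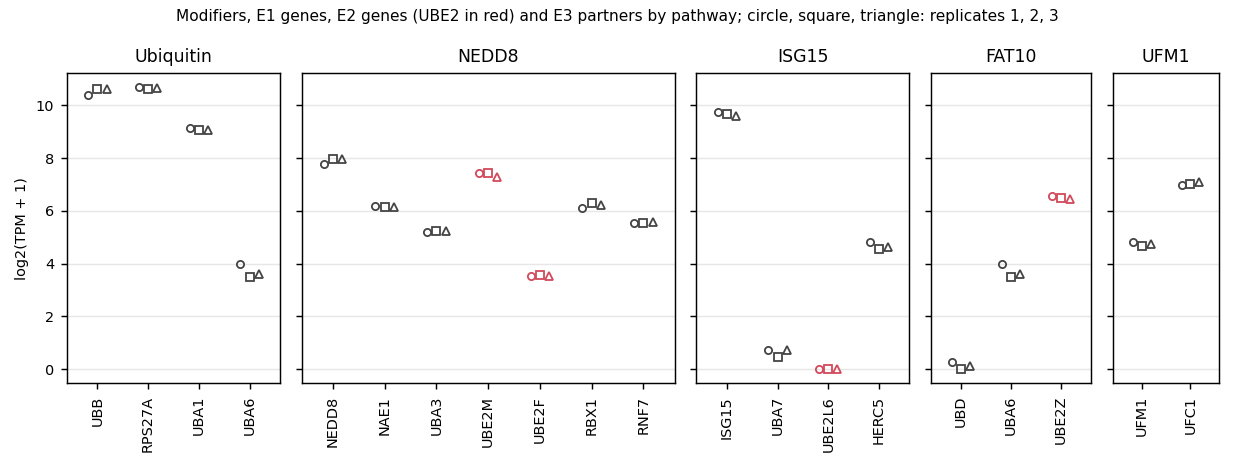
log2(TPM + 1) of modifier genes, E1 genes, E2 genes (red) and E3 partners for 5 modifiers, with 1 symbol per replicate. UBE2L6 lies at 0 beside ISG15 at 815.4 TPM, and UBE2F lies far below UBE2M.

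The last group holds E2s with unusual partners or size. UBE2L3, which passes ubiquitin to ligases that carry it on their own cysteine, such as ARIH1, had 64.9, 58.3 and 60.0 TPM in replicates 1, 2 and 3. UBE2L6, its closest relative among the members with a role listed here, was at 0. UBE2H, the E2 of the CTLH ligase, had 34.4, 36.1 and 32.1 TPM, near the CTLH subunits MAEA and RMND5A with 34.0 ± 1.35 and 27.6 ± 2.61 TPM (SD, n = 3). UBE2O, a large enzyme that acts as both E2 and E3, had 26.9, 26.0 and 23.9 TPM. UBE2Q1 had 64.5, 64.0 and 65.3 TPM and UBE2Q2 had 14.3, 12.7 and 11.7 TPM, a log2 ratio of 2.24 ± 0.14 (SD, n = 3), or 4.78 by coverage. The libraries of UBE2Q1 and UBE2Q2 did not overlap. UBE2U was listed at 0 in every library, and so was UBE2L5, which is on none of the role lists.

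In the order of the 31 members by mean TPM, the libraries of 15 of the 30 neighbouring pairs overlapped. They included UBE2S and UBE2C, UBE2M and UBE2T, UBE2D2 and UBE2D3, UBE2Q1 with UBE2E1 and UBE2E1 with UBE2L3, UBE2J2 and UBE2E3, the run from UBE2H through UBE2G1 to UBE2B, that from UBE2V2 through UBE2O to UBE2R2, that from UBE2J1 through UBE2E2 and UBE2D1 to UBE2K, and UBE2F with UBE2D4. Within libraries, 3 of the overlapping pairs kept 1 order in 3 of 3 libraries, which were UBE2E1 over UBE2L3, UBE2O over UBE2R2 and UBE2E2 over UBE2D1, and the others changed order. The steps without overlap included UBE2C to UBE2M (1.64-fold), UBE2D4 to UBE2W (1.65-fold) and UBE2K to UBE2Q2 (1.37-fold). The median coefficient of variation of the 30 members that averaged 10 TPM or more was 4.41%, against 4.88% over the 8419 rows at that level. A range of log2(TPM + 1) above 1 was found in 0 of these members and in 0.273% of all rows at that level. Replicate 1 held the highest value for 18 of the 30 members and for 62.5% of the 8419 rows at that level, so the members shared the tilt of the library.

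Coverage and TPM ranked some members differently. UBE2S, UBE2M, UBE2T and UBE2C were the 4 highest members by both. With coverage divided by FPKM and set relative to the top gene of each library, whose quotient was 13.3, 12.8 and 11.5 in replicates 1, 2 and 3, the median member was at 0.792, and so was the median of 12570 rows above 1 FPKM. UBE2M, UBE2Z, UBE2B and UBE2G1, each with 1 RefSeq transcript, were at 1.00, and so was UBE2Q1 with 2 transcripts, while UBE2N with 1 transcript was at 0.792. UBE2E3 was lowest at 0.0707, UBE2E2 was at 0.0796, UBE2V2 at 0.0885, UBE2L3 at 0.105, and UBE2V1 and UBE2Q2 at 0.170. Thus UBE2E3 ranked fifteenth by TPM with a mean coverage of 20.9 ± 2.40, while UBE2N ranked sixteenth with 205.1 ± 12.4 (SD, n = 3).

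The coverage that corresponds to 10 TPM at that top quotient was reached in every library by 23 members. The share of all rows that reached it was not computed, so this count is not read as a trait of the members. UBE2L3, UBE2E3, UBE2V2, UBE2E2, UBE2Q2 and UBE2F had at least 10 TPM but less than this coverage. A level taken from coverage at that quotient would be lower than the TPM given here for any member below the top gene. For these 6 genes it would fall below 10 TPM. Which transcripts carry these values was not tested.

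**Figure D4:**
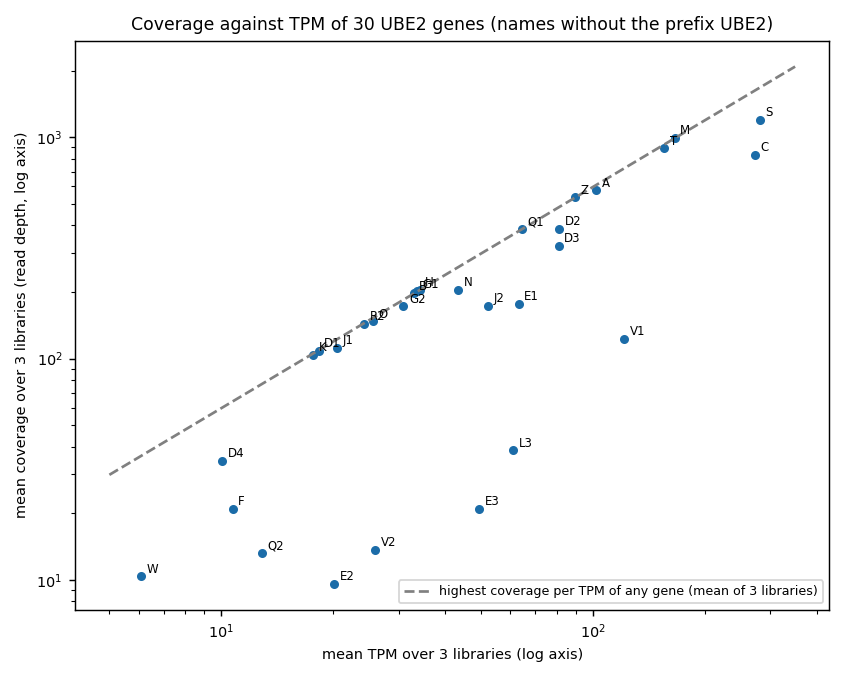
Mean coverage (read depth, log axis) against mean TPM (log axis) over 3 libraries for 30 members above 0. The dashed line is the highest coverage per TPM of any gene, and UBE2E2, UBE2E3, UBE2V2, UBE2L3, UBE2Q2 and UBE2V1 lie far below it.

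Reads of members may be shared with near copies. Another 16 rows carry UBE2 in their names as pseudogenes, relatives, antisense or read-through genes, and 0 of them reached 10 TPM in any library. UBE2CP5, a pseudogene of UBE2C, had 4.999 ± 0.255 TPM, UBE2Q2P2 had 3.41 ± 0.413 TPM on chromosome 15 and UBE2Q2P1 had 1.76 ± 0.150 TPM (SD, n = 3). These were the rows with at least 1 TPM in every library. UBE2CP5 was far below UBE2C, whereas UBE2Q2P2 amounted to more of the 12.9 TPM of UBE2Q2.

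The read-through row TMEM189-UBE2V1, which contains the whole UBE2V1 row on chromosome 20, held 0, 6.39 and 0.264 TPM over replicates 1 to 3. UBE2V1 was lowest in replicate 2, where the read-through row was highest. The sum of both was 125.1, 120.3 and 125.2 TPM, or 123.5 ± 2.79 TPM, against 121.3 ± 6.41 TPM for UBE2V1 alone (SD, n = 3). The division of reads between the rows was not tested further.

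**Figure D5:**
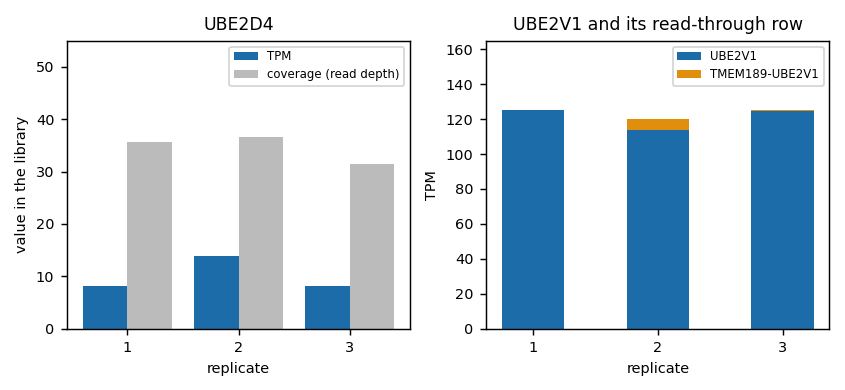
Left, TPM and coverage of UBE2D4 in replicates 1 to 3. Right, TPM of UBE2V1 with the read-through row TMEM189-UBE2V1 stacked on it. UBE2D4 is highest in replicate 2 by both, but its coverage of 36.6 there is close to the 35.7 of replicate 1. The UBE2V1 sum is 120.3 TPM in replicate 2.

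Of 9 E1 genes listed, 8 had at least 10 TPM in every library, against 40.4% of the rows of protein-coding genes, and UBA7 was the exception. UBA1, the main ubiquitin E1, had 560.4, 535.5 and 529.9 TPM in replicates 1, 2 and 3. It lay above every E2 of the family. Of 11 genes for ubiquitin and related modifiers, 10 had at least 10 TPM in every library, with UBD as the exception, against the same 40.4%. The ubiquitin genes UBB and RPS27A had 1501 ± 127 and 1614 ± 30.5 TPM (SD, n = 3).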

How the data were processed

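RNA-seq of 3 libraries labelled HepG2 was used, with groups from the sample titles. The authors filtered reads with FastQC 0.11.8 and Trim Galore 0.6.2 and mapped them with STAR 2.6.1a to GRCh38. StringTie is listed in the submitters' processing notes without a role, and the annotation and strand setting are not given in the sources used here. The deposited tables give coverage, an unscaled mean depth per gene. The deposited FPKM is scaled for length and library size, and the deposited TPM has a fixed sum per library. Mitochondrially encoded genes took 19.9%, 20.2% and 20.2% of TPM.

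Rows were joined by name and coordinates (43389 rows), and alternate and unplaced references were left out. No counts are given, so no counting error could be computed. Values are means ± SD over libraries. Pairs were compared by log2 ratios with a pseudocount of 1 and an exact permutation test that flips their signs (two-sided). The range calculation was checked on simulated data. Promoter windows and transcript counts came from RefSeq tables and exons from GENCODE v44. The members are named with listed E1, modifier and partner genes. A few genes enter the counts but are not reported here. The members, lists and pairs were chosen with earlier results of these data known. Alternatives were leaving out replicates, other scalings, limits and pseudocounts, and FPKM or coverage. Python 3.11.15, numpy 2.4.6, pandas 2.3.3 and matplotlib 3.10.9 were used.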

Additional observations from a re-analysis of the deposited data

How the results depend on the processing

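Median-of-ratios scaling moved no member's mean by more than its SD. Without mitochondrially encoded genes every member above 0 rose by a factor of 1.25, and the summed TPM was 2671. Chosen after the data were seen, the sum without UBE2S and UBE2N, which overlap genes of at least 10 TPM, was 1809 TPM. The number of members at 10 TPM in every library stayed at 29 with each replicate left out, was 30 without mitochondrially encoded genes, 31 at a limit of 1 TPM and 14 at 50 TPM. It was 23 with the matching limit on coverage, which was chosen after the data were seen and has no share over all rows beside it. Members with a range above 1 numbered 0 under each filter, pseudocount, scaling and replicate left out. The log2 ratio of UBE2N to UBE2V1 reversed to 0.73 by coverage, and that of UBE2D2 to UBE2D3 ranged from -0.023, without replicate 2, to 0.032 with a replicate left out. No other ratio changed direction, but coverage in place of TPM moved several by over 1.5 times on the unlogged scale. By coverage the log2 ratio was 3.81 for UBE2N to UBE2V2, 3.08 for UBE2V1 to UBE2V2 and 3.03 for UBE2E1 to UBE2E3. It was 4.78 for UBE2Q1 to UBE2Q2, 5.50 for UBE2M to UBE2F and -0.63 for UBE2J1 to UBE2J2. That of UBE2D2 to UBE2D3 moved less, to 0.25. With TMEM189-UBE2V1 added to UBE2V1, an alternative chosen after the data were seen, the ratios were -1.49 for UBE2N to UBE2V1 and 2.21 for UBE2V1 to UBE2V2. No paired comparison of conditions was possible because there is 1 condition only. For a gene at 0, the depth that would set an upper limit is unknown.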

Other observations

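Other E2-type genes without a matching UBE2 name were also measured. At least 10 TPM throughout was found for 6 of 10 such genes, against 20.7% of all rows and 40.4% of the rows of protein-coding genes. UFC1, the E2 of UFM1, had 129.8 ± 4.01 TPM, above UFM1 with 25.7 ± 1.30 TPM (SD, n = 3). ATG3, the E2-like enzyme that lipidates LC3 in autophagy, had 54.3 ± 5.31 TPM, and ATG10, which joins ATG12 to ATG5, had 4.65 ± 0.134 TPM (SD, n = 3). Their shared E1 ATG7 had 17.1 ± 0.557 TPM (SD, n = 3). The giant E2 and E3 enzyme BIRC6 had 14.8 ± 1.67 TPM (SD, n = 3). TSG101, UEVLD and AKTIP, which have an E2-like fold without the catalytic cysteine, had 55.3 ± 0.709, 11.8 ± 0.927 and 7.002 ± 0.580 TPM (SD, n = 3). UBE2NL and UBE2QL1 were listed at 0 in every library.

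Of 23 listed E3 ligases, their subunits and cofactors, 22 had at least 10 TPM in every library, and TRAF6 did not. That limit was reached by 20.7% of all rows and 40.4% of the rows of protein-coding genes. Apart from CDC20, the highest was STUB1, a ligase that works with chaperones, at 182.2 ± 12.3 TPM (SD, n = 3). MDM2, the ligase of p53, had 21.4 ± 1.97 TPM, and the SUMO ligases RANBP2 and PIAS1 had 31.3 ± 2.36 and 12.3 ± 0.525 TPM (SD, n = 3). DCUN1D1, which helps UBE2M load cullins, had 15.0 ± 2.28 TPM, and ARIH1 had 14.4 ± 0.705 TPM (SD, n = 3).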
